A study of Homo sapiens with 16 samples.

Results

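The major histocompatibility complex (MHC) on chromosome band 6p21 was examined for peaks of 3 NF-κB subunits in T47D cells. T47D is an established luminal A breast cancer line. The members are all peaks at most 5000 bp long whose summit, the base with the strongest signal, lay in GRCh38 chr6:28500000-33500000. They number 1510 of the 6172657 peaks of that length on chromosomes 1 to 22, X and Y in 12 deposited lists. Each list came from 1 chromatin immunoprecipitation sequencing (ChIP-seq) library, made with an antibody to P65 (the RELA protein), RELB or NFKB2. For each antibody there were 2 libraries from cells transduced with lentiviral shRNAs against DAB2IP and 2 from control cells, labelled as given an empty vector control shRNA, so that both arms carried a lentivirus and were selected with puromycin. The study's text also describes T47D controls with a scrambled shRNA, and which of these the ChIP-seq controls were is not settled here. DAB2IP encodes a Ras GTPase-activating protein. Libraries with the same condition and replicate number are treated here as 1 preparation. The labels do not say that they came from the same cells. The 4 preparations, knockdown 1 and 2 and control 1 and 2, each have 3 immunoprecipitated libraries and 1 input. The inputs are not used here on their own. The same number of bases of the same chromosome, chr6:38500000-43500000, served as the comparison window and held 8127 peaks. Nothing in the labels says that replicates came from separate cultures, so the tests measure the spread between these samples, which may be technical.

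The MHC holds the genes through which cells display peptides to T cells. Class I genes (such as HLA-B and HLA-C) present peptides from inside the cell, class II genes (HLA-DR, HLA-DQ and HLA-DP) present peptides taken up from outside, and the class III stretch between them carries the cytokine genes TNF, LTA and LTB, complement genes and heat shock genes. RELA is the main activating subunit of the canonical NF-κB pathway, and RELB with NFKB2 forms the dimer of the noncanonical pathway. NF-κB is known to act on class I promoters through a κB element and to induce TNF, LTB, TAP1 and the stress response gene IER3. Class II genes are mainly known as targets of another factor complex and of CIITA, and are expressed chiefly in immune cells.

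The promoter sequences below were picked for what they hold, a peak or a κB match, and show no general relation between peaks and matches. HLA-DQA1 and AGPAT1 are printed as named promoters whose own 300 bases lay under a peak in the most libraries, 4 for HLA-DQA1 and 3 for AGPAT1. HLA-B, HLA-C, LTA, LTB and TAP1 are printed as named promoters that hold a match to the canonical κB consensus, and none of them lay under a peak in any of the 12 libraries. Each sequence runs 5′ to 3′ on the gene's strand from 250 bases before the annotated start site to 50 after it, from RefSeq on GRCh38.p14. Capitals mark a κB consensus match on either strand, with overlapping matches run together.
HLA-DQA1: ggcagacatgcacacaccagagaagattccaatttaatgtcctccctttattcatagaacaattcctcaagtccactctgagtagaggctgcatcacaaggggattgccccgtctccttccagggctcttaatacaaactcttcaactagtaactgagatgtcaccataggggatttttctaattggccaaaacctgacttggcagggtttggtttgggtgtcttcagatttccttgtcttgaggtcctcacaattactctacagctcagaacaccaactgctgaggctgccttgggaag
AGPAT1: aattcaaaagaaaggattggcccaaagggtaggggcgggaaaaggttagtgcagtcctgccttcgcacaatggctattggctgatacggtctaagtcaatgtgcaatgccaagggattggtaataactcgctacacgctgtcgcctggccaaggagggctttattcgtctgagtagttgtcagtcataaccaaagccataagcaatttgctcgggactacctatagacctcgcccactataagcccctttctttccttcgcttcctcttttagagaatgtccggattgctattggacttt
HLA-B: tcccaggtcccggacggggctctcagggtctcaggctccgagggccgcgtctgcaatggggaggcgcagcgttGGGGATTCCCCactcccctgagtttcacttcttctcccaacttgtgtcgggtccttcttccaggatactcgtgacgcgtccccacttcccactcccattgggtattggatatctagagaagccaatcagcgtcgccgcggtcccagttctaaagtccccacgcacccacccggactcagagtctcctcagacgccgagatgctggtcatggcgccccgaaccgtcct
HLA-C: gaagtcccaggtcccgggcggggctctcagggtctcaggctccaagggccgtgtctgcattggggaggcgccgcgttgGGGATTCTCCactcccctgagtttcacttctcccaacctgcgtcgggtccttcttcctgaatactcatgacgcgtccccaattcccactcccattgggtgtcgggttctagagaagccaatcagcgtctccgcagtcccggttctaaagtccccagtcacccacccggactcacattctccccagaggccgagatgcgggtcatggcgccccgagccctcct
LTA: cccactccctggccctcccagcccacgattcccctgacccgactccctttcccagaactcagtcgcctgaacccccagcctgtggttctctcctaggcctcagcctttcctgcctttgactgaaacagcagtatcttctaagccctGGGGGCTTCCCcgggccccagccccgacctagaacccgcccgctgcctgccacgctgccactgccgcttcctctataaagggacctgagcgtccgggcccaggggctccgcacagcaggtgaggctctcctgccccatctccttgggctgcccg
LTB: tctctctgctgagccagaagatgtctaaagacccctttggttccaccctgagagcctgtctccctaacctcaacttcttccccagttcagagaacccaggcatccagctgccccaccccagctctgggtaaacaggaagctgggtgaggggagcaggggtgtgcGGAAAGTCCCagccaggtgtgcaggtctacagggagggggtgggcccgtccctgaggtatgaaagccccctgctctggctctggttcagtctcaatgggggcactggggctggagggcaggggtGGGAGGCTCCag
TAP1: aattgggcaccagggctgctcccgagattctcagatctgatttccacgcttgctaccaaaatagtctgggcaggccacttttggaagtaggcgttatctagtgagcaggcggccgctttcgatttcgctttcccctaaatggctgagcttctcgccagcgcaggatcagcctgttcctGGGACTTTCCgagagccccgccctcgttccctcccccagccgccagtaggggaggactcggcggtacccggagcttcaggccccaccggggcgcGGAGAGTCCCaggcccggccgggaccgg
The windows are chr6:32637156-32637455 on the plus strand for HLA-DQA1, chr6:32178059-32178358 on the minus strand for AGPAT1, chr6:31357130-31357429 on the minus strand for HLA-B and chr6:31272043-31272342 on the minus strand for HLA-C. Those of LTA, LTB and TAP1 are chr6:31572039-31572338 (plus), chr6:31582376-31582675 (minus) and chr6:32853655-32853954 (minus). For LTA and TAP1, 1 of 2 RefSeq start sites is shown, and the other start site of each gave no match. LTB has 2 start sites 1 base apart, both with matches. AGPAT1 has 5, and only the window shown lay under a peak. A match is a description of the letters and not a binding site. Among all 35116 promoters of this length, 11.3% held a match, against 12.5% of the 271 in the locus and 9.38% of the 128 in the comparison window. Of the 34 promoters of the locus with a match, 1 lay under a peak in any library, that of the antisense transcript HLA-DQB1-AS1. Of the 237 without a match, 15 did.

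The first question was whether NF-κB peaks were as dense in the MHC as in other sequence of chromosome 6. They were not: in each of the 12 libraries the locus held fewer peaks than the comparison window. For RELA, the knockdown libraries listed 25 and 114 peaks in the locus against 133 and 1124 in the comparison window, and the control libraries 147 and 175 against 762 and 896. For RELB, the knockdown libraries listed 12 and 148 against 115 and 745, and the control libraries 135 and 158 against 825 and 748. For NFKB2, the knockdown libraries listed 154 and 123 against 809 and 603, and the control libraries 178 and 141 against 739 and 628. The comparison window was thus 4.15-fold to 9.86-fold richer in peaks, with the most extreme values in RELA knockdown replicate 2 (9.86-fold) and RELB knockdown replicate 1 (9.58-fold).

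**Figure D1:**
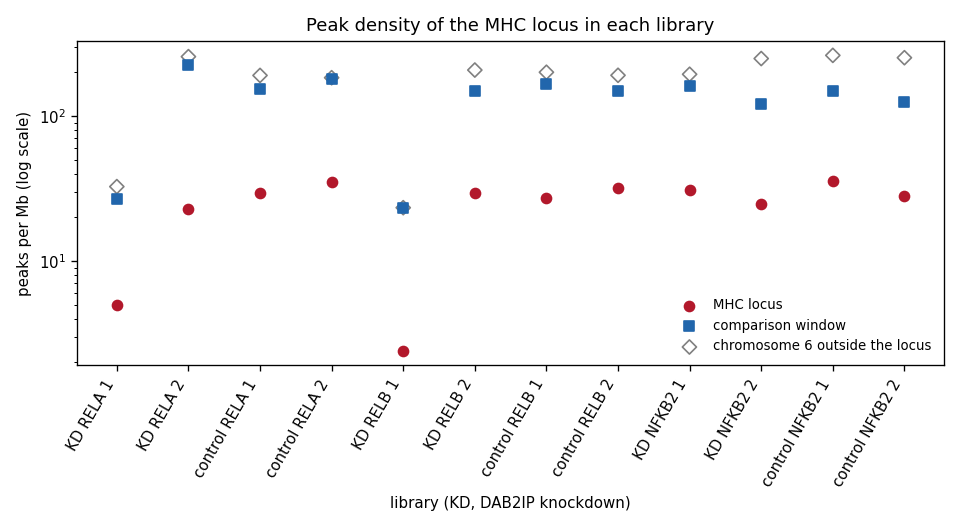
Peaks per Mb on a log axis in each of the 12 libraries, for the MHC locus (circles), the comparison window (squares) and chromosome 6 outside the locus (open diamonds). The locus lies lowest in every library, at 2.4 to 35.6 peaks per Mb, against 23 to 224.8 in the comparison window.

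Averaged over the 3 libraries of each preparation, the log2 ratio of the 2 densities was -2.69 and -2.64 in the knockdown preparations and -2.35 and -2.25 in the control preparations. The mean was -2.48 ± 0.22 (SD, n = 4 preparations), a 5.59-fold lower density, and all 4 preparations lay on the same side (exact two-sided sign-flip test, p = 0.125, the smallest that 4 preparations allow). Against the rest of chromosome 6 the libraries' log2 ratios ran from -3.49 to -2.39. The ratio depended on which peaks were kept. Among the 20000 smallest p-values of each list, the locus held 6 to 22 peaks and the mean log2 ratio was -0.84, with RELB knockdown replicate 2 at 0 and RELB control replicate 1 at 0.14. By antibody the mean log2 ratio was -2.61 ± 0.46 with RELA, -2.61 ± 0.46 with RELB and -2.22 ± 0.15 with NFKB2 (SD, n = 4 each). These antibody means did not separate beyond their spread (exact test with antibody names exchanged within preparations, p = 0.287), and neither did the preparations (exact test over 15400 groupings into sets of 3, p = 0.465).

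Within the locus the peaks stood in a few islands. In 50-kb bins with the 12 libraries summed, the median bin of the locus held 2 peaks, and 29 of 100 bins held 0. The median bin of the comparison window held 80 peaks, and none of its 100 bins fell below 42. Only 14 bins of the locus reached 40 peaks, the level set at 50% of the comparison window's median after the profile was seen. These 14 bins carried 1016 of the 1510 peaks (67.3%), and in single libraries 58.3% to 82.5%. Inside them the density was 10 to 174 peaks per Mb (median 135), and outside them 1.16 to 14.2 (median 12). Because the bins were picked by these same peaks, a higher density inside them was fixed in advance. The comparison window had 23 to 224.8 (median 149).

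**Figure D2:**
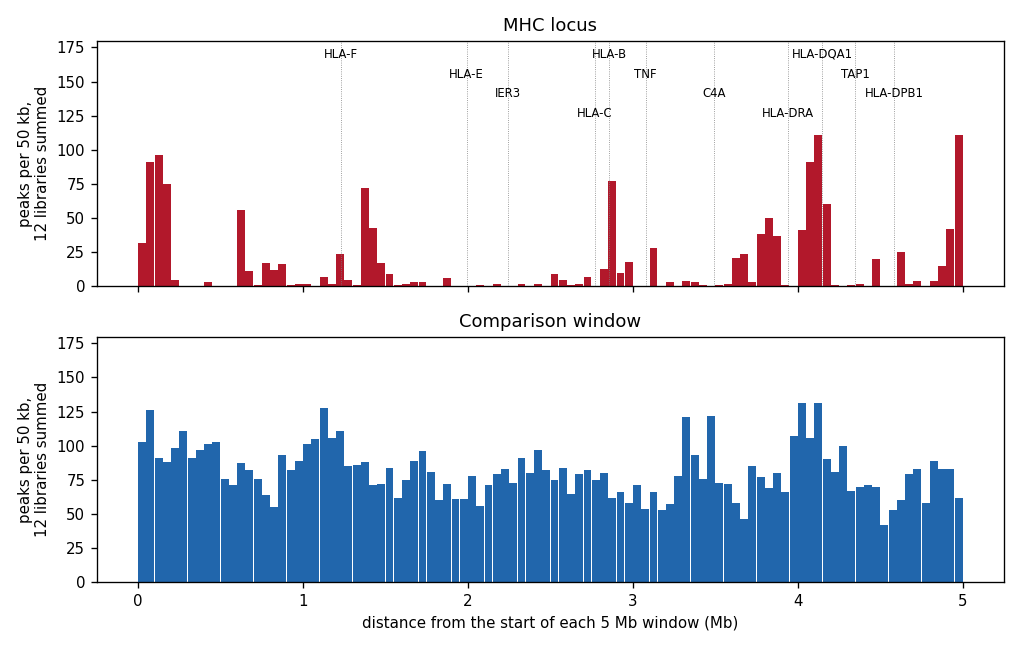
Peaks per 50 kb with the 12 libraries summed, against distance from the start of each 5 Mb window in Mb, for the MHC locus (top, with dotted lines at gene midpoints) and the comparison window (bottom). The locus shows islands of up to 111 peaks between bins at or near 0, and the comparison window runs from 42 to 131 throughout.

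The 14 bins formed 7 stretches. The longest, chr6:32500001-32700000, held 303 peaks and the class II genes HLA-DRB5, HLA-DRB1, HLA-DQA1 and HLA-DQB1, a stretch whose gene content and sequence are known to vary between people. The class I gene HLA-B stood in chr6:31350001-31400000 with 77 peaks, and a further stretch of class I sequence held 115. The edges of the locus accounted for others, with 262 peaks in chr6:28550001-28700000 around SCAND3, a SCAN domain gene, and 153 at the other edge, where KIFC1, PHF1, CUTA and ZBTB9 lie. The remaining stretches were 1 bin each, with 56 peaks by the odorant receptor genes OR2J1 and OR2J3 and 50 at TSBP1.

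Between the islands, 29 gaps of more than 50 kb held no member's summit in any library and took up 54.9% of the locus. The comparison window had 0 such gaps. The longest gap in the locus was 227 kb, chr6:30366515-30593529, and covered HLA-E, GNL1, PRR3 and ABCF1. The longest in the comparison window was 9.63 kb. Intervals above 5000 bp, described further below, were not counted for the gaps. One of them, chr6:30366715-30693654, lay over nearly all of the longest gap in RELA knockdown replicate 2 and NFKB2 knockdown replicate 2. By class, the median library held 15.4 peaks per Mb in class I (HLA-F to MICB), 23.1 in class III (MICB to HLA-DRA) and 43.9 in class II (HLA-DRA to HLA-DPB1). The flanks held 36.8 on the side of HLA-F and 47.5 on the side of HLA-DPB1. The locus holds 172 protein-coding genes and the comparison window 71.

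How much signal lay behind a peak could be read from the lists. In 10 of the 12 libraries, the fold and p-value of every peak in both windows could be solved for a whole number of sequenced fragments under the summit, together with the background expected there. RELA knockdown replicate 1 and RELB knockdown replicate 1 gave none and are left out of these counts. A peak of the locus rested on 1 fragment in 36.8% to 57.6% of cases in a library, whereas 0 of the peaks in the comparison window did. A peak over a higher background needs more fragments for the same p-value, so fragment numbers and backgrounds are not separate results. In the comparison window the lowest background of any peak was 0.49 to 0.895 fragments, depending on the library. The median was 1 or 2 fragments in the locus and 3 or 4 in the comparison window, and no peak of the locus had more than 6. The median background was 0.108 to 0.471 fragments in the locus against 0.732 to 1.34 in the comparison window. In these libraries 50.9% to 79.3% of the members had a background below the lowest of any peak in the comparison window. The median peak of the locus was 147 bp long in 9 of the 12 libraries, the shortest length of any member, and 156, 158 and 182.5 bp in the others.

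**Figure D3:**
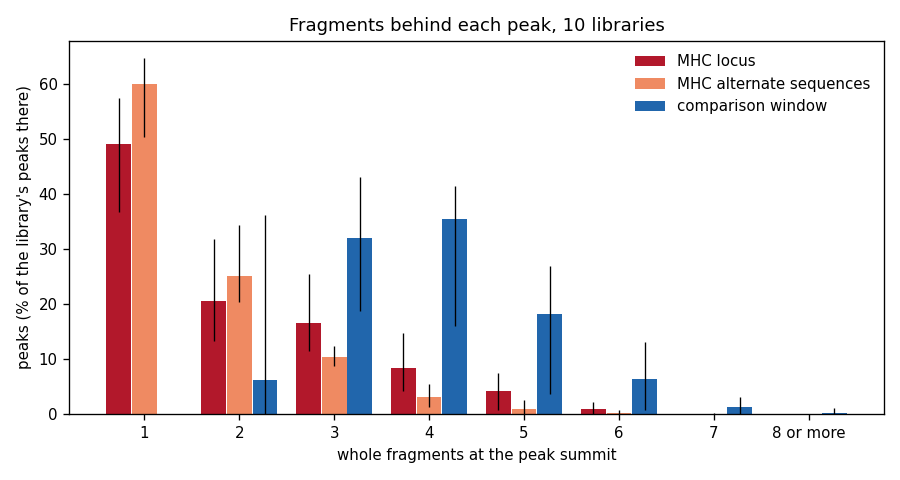
Share of peaks, in percent, by the whole number of fragments at the summit in 10 libraries, for the MHC locus, the MHC alternate sequences and the comparison window. Bars are means over libraries and lines run from the lowest to the highest library. A median library had 52.1% of its peaks in the locus at 1 fragment, and 0 in the comparison window. Peaks over a higher background need more fragments for the same p-value.

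The lists also held peaks on 7 alternate MHC sequences of the assembly, which give other versions of this locus beside the one on chromosome 6. There were 70 to 734 such peaks up to 5000 bp per library (median 659), 3.48 to 5.83 times as many as in the locus itself. The 7 sequences differed: APD carried 52 peaks over all libraries, MCF 708, DBB 777, MANN 784, SSTO 1051, QBL 1425 and COX 1686. Added to the peaks of the locus, they brought the count to a median of 1 times that of the comparison window. The range was 0.458 times (RELA knockdown replicate 2) to 1.36 times (NFKB2 control replicate 2). These are ratios of counts and not of densities. The alternate sequences add further copies of the locus, whose lengths were not taken into account. In the same 10 libraries 50.5% to 64.7% of the peaks on the alternate sequences rested on 1 fragment. Whether the placement of reads among these copies set the gaps of the locus was not tested.

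Of the 172 protein-coding genes of the locus, 57 (33.1%) had a peak over the gene or within 1 kb of it in any library. Genome-wide the share was 95.9% of 20033 genes, and in the comparison window 71 of 71 had one. For promoters, 1 kb either side of an annotated start site, 23 of 154 genes of the locus (14.9%) had a peak in at least 1 library, against 64 of 66 in the comparison window and 91.6% of 15842 genes. With 5 kb either side the counts were 47 of 154 and 66 of 66. The promoters reached by the most libraries were those of HLA-DQA1 (9 libraries), SCAND3 (8), AGPAT1 and RNF5 (7 each) and TSBP1 (5). AGPAT1 and RNF5 run away from each other and their promoter windows overlap. Both had the same summed -log10 p, 26.1, so they are not separate cases. AGPAT1 encodes an acyltransferase of phosphatidic acid synthesis and RNF5 an endoplasmic reticulum ubiquitin ligase.

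The cytokine genes and IER3 had no peak up to 5000 bp. TNF (chr6:31575565-31578336), LTA (chr6:31560610-31574324) and LTB (chr6:31580558-31582425), which encode tumour necrosis factor and the lymphotoxins, were at 0 peaks in all 12 libraries, with the nearest peak of any library 23.9 to 32 kb away. NFKBIL1, an NF-κB inhibitor-like gene beside LTA, was at 0 with the nearest peak 47.5 kb off. IER3 (chr6:30743199-30744547), an immediate early gene of the stress response, was at 0 with the nearest 49.1 kb off. The 50-kb bins around these 5 genes held 0 members in all libraries, so the 0 describes the lists and does not show that a factor was absent.

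Antigen processing genes gave 3 peaks in all. TAP1, a subunit of the peptide transporter, and PSMB9, a subunit of the immunoproteasome, had 0 peaks in 12 libraries, and so did PSMB8. TAP2 had 1 peak and TAPBP, the gene of tapasin, 2. Of the classical class I genes on the list, HLA-B had 7 peaks in 5 libraries, while HLA-C had 0. By antibody, HLA-B had 2 RELA, 3 RELB and 2 NFKB2 peaks. None of the peaks at HLA-B lay within 1 kb of the annotated start site. The 5 non-classical and class I-like genes held 8 peaks, of which 5 were at MICA and 0 at HLA-E and MICB.

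Class II held the most peaks of the 10 gene groups, 95 over 5 of its 13 genes. HLA-DQA1, the α chain of HLA-DQ, had 55 peaks and was the only gene on the lists with a peak in all 12 libraries. Its counts were 4 and 4 in the RELA knockdown libraries and 5 and 5 in the RELA controls, 1 and 5 against 8 and 3 for RELB, and 5 and 8 against 6 and 1 for NFKB2. The groups overlapped for RELB and NFKB2 and differed by 1 peak for RELA, and the sum was 27 in knockdown and 28 in control. HLA-DRB1 had 26 peaks in 10 libraries, 11 in knockdown and 15 in control, and HLA-DQB1 10 in 5 libraries. The other 8 class II genes, among them HLA-DRA, HLA-DPA1 and HLA-DPB1, had 0. No peak at these class II genes had a listed -log10 q above 0, and the strongest, at HLA-DRB1, had a -log10 p of 4.12.

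Among the remaining groups, the chromatin and RNA genes had 28 peaks, with 15 at BAG6, a chaperone gene, in 9 libraries and 8 at BRD2, a BET bromodomain gene, in 7. EHMT2 had 3, DAXX 2, and DDX39B, RING1 and RXRB 0. Heat shock genes had 3, all at HSPA1L, and complement genes 1, at C2. HSPA1A and HSPA1B, and likewise C4A and C4B, are near-identical copies, and reads from such copies cannot be told apart with certainty. AIF1 was the only neighbour of the TNF cluster with a peak, 2 in all. Over the 47 genes of the lists, 18 had a peak and 29 had none. All 5 genes that touched one of the 14 dense bins had a peak, as did 13 of the 42 others. The bins were picked by these same peaks, so this difference follows from the choice.

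**Figure D4:**
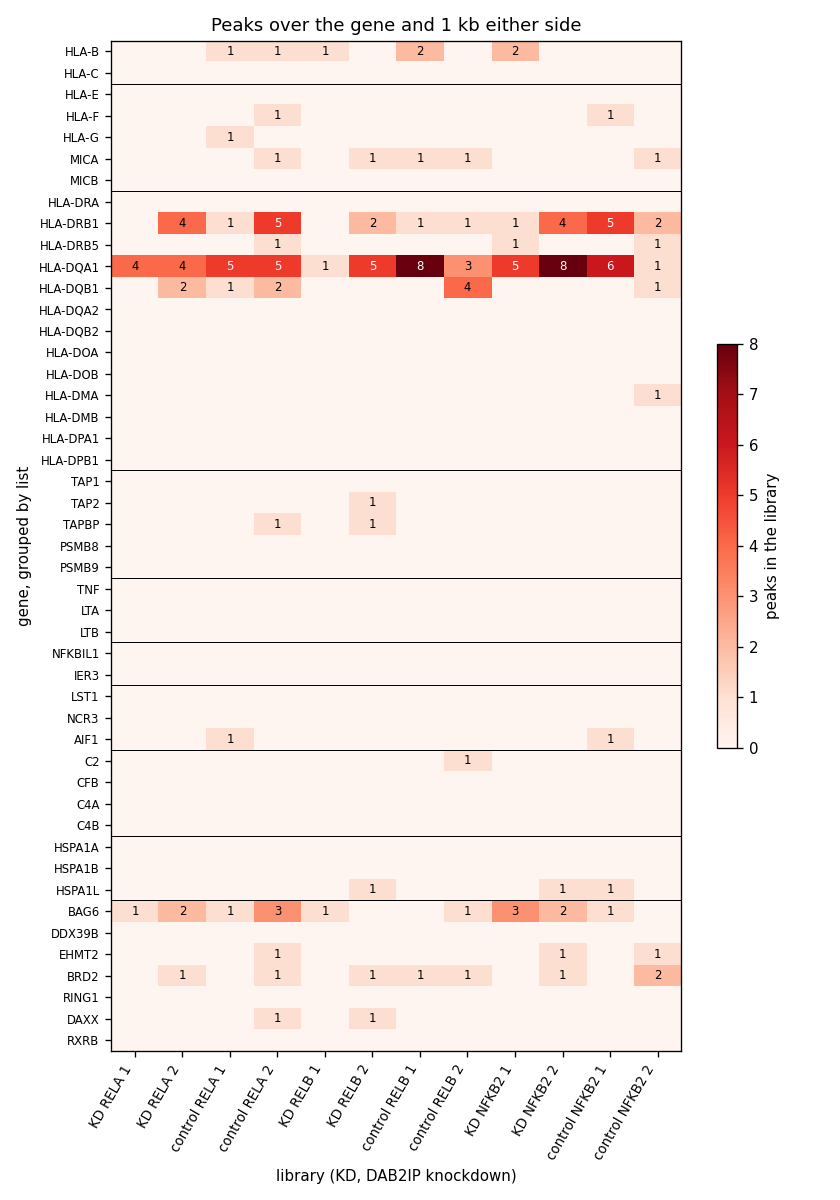
Number of peaks over each gene and 1 kb either side (rows, 47 genes in 10 groups separated by lines) in each of the 12 libraries (columns), with KD for DAB2IP knockdown. HLA-DQA1 has a peak in every library, at 1 to 8, and the rows of TNF, LTA, LTB, NFKBIL1 and IER3 are empty.

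The knockdown and control libraries were then compared within the locus. For RELA both knockdown libraries (25 and 114 peaks) lay below both controls (147 and 175), a log2 ratio of -1.59 (exact two-sided permutation test, p = 0.333, the smallest that 2 against 2 allows, adjusted p = 0.667 over 3 antibodies). For RELB the log2 ratio was -1.79 with overlapping groups (exact permutation p = 0.667, adjusted p = 0.667). It rested on knockdown replicate 1, and without that library it was 0.02, against -3.61 without knockdown replicate 2. For NFKB2 it was -0.20 with overlapping groups (exact permutation p = 0.667, adjusted p = 0.667), and ran to -0.04 or -0.03 without knockdown replicate 2 or control replicate 1 and to -0.37 without either of the other libraries. Without a length limit the NFKB2 value was -0.05, and among the 20000 smallest p-values RELB gave -0.60 and NFKB2 -0.49. RELA without knockdown replicate 1 gave -0.49 and without knockdown replicate 2 gave -2.68. The 2 libraries with 25 and 12 peaks also had the shortest lists over all chromosomes, 105534 and 75078 peaks, against 517650 or more in the others.

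Set against the comparison window of the same library, the log2 difference between knockdown and control for RELA was -0.49, with -0.37 in the RELB and -0.24 in the NFKB2 libraries (exact permutation p = 0.333, 0.667 and 0.333, adjusted p = 0.5, 0.667 and 0.5). For RELA the value was -0.05 without knockdown replicate 2 and -0.94 without knockdown replicate 1. RELB changed direction without knockdown replicate 1, to 0.1, and was -0.83 without knockdown replicate 2 and -0.18 without control replicate 2. NFKB2 turned to 0.02 when the rest of chromosome 6 stood in for the comparison window. Among the 20000 smallest p-values RELA gave -0.89 and RELB -0.64, RELA with a -log10 p of at least 2 gave -0.77, and NFKB2 without a length limit gave -0.09. No contrast between conditions in the locus could reach the 0.05 level in this design.

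Overlapping peaks were merged to compare positions between knockdown and control. The counts still depend on list length. A knockdown-only region needs a peak in knockdown replicate 1, which listed 25 RELA and 12 RELB peaks in the locus. For RELA, 1 of 382 merged regions of the locus was called in both knockdown libraries and neither control, and 24 in both controls and neither knockdown. Over all chromosomes 0.566% and 2.44% of merged RELA regions had these patterns. For RELB the counts were 2 and 23 of 361, against 0.347% and 2.96% over all chromosomes. For NFKB2 they were 13 and 15 of 438, against 2.09% and 2.93%. Expressed as shares, knockdown-only regions made up 0.262%, 0.554% and 2.97% of the locus regions for the 3 antibodies, and 0.379%, 0.134% and 1.61% of those in the comparison window. Control-only regions made up 6.28%, 6.37% and 3.42% in the locus and 2.39%, 2.36% and 1.73% in the comparison window. When each list was cut to its 20000 smallest p-values, no antibody kept a knockdown-only region in the locus (0 each), and control-only regions fell to 2, 1 and 2. Sharing between libraries of any kind was also more frequent in the locus, and its part in these shares was not tested.

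No RELA region and no RELB region of the locus was called in all 4 libraries, with counts of 0 and 0, and 4 NFKB2 regions were, against 0.0347%, 0.0274% and 0.308% over all chromosomes. Most regions came from 1 library, 82.5% for RELA, 77.8% for RELB and 71.9% for NFKB2. Over all chromosomes these shares were 88.5%, 88.9% and 82.1%, and in the comparison window 90.2%, 92.1% and 89.2%. At promoters, control-only peaks were found for RELA at OR2J3 and OR14J1, odorant receptor genes, for RELB at SCAND3 and for NFKB2 at SCAND3. That is 2, 1 and 1 of 154 genes, where 5.65%, 6.98% and 4.78% of all promoters had the pattern. Knockdown-only promoters numbered 0 for each antibody, against 1.11%, 0.701% and 3.71% of all promoters. A promoter without any peak cannot show either pattern. Only 23 of the 154 had a peak in any library, against 91.6% of all promoters, so the lower counts are no separate result. OR2J3, OR14J1 and SCAND3 were named after their values were seen.

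Over the 12 libraries the peaks of the locus merged into 680 regions, of which 345 came from 1 library and 8 from at least 8. No region was called in more than 9. In the comparison window 3782 of 5490 regions came from 1 library and 1 from at least 8. The most shared regions of the locus were chr6:32362278-32363533 and chr6:32368682-32369513, both within TSBP1, a testis-expressed gene, and each in 9 libraries. The first had 5 knockdown and 4 control libraries and the second 3 and 6. Folds ran from 1.76 to 4.66 at the first, the highest in RELB knockdown replicate 1, and from 1.56 to 2.32 at the second. In the libraries whose fragments could be recovered, the first rested on 1 or 2 fragments and the second on 1. Next came chr6:32159491-32160022 in PPT2, a thioesterase gene, chr6:32338023-32338711 in TSBP1, and chr6:28617865-28620531, 1663 bp from SCAND3. Each was called in 8 libraries and had up to 4 fragments. Merging chains overlapping peaks, so the libraries of a region need not share any position. In the PPT2, TSBP1 and SCAND3 regions of 8 libraries, the peak that ranked best in its library overlapped 6, 6 and 4 other libraries.

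After correction for multiple testing by the peak caller, 3 peaks of the locus passed q of 0.05, each in 1 library, and 0 passed in the comparison window. Described here are chr6:32159560-32159815 in PPT2 in NFKB2 knockdown replicate 1 (fold 4.74, -log10 q 1.96) and chr6:32338121-32338321 in TSBP1 in RELA control replicate 2 (fold 4.67, -log10 q 1.74). Both had 4 fragments at the summit, over backgrounds of 0.0555 and 0.0706. The best-ranked peaks of 8 other libraries had a -log10 p of 4.13 to 7.41 and lay at or nearest to TSBP1, SCAND3, OR2J3 and ZBTB9.

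Overlap between libraries was measured as the Jaccard index, the bases covered by both divided by the bases covered by either. In the locus, libraries of the same preparation with different antibodies shared 7.7% ± 3.78 (SD, n = 12 pairs), replicates of a group 4.47% ± 3.36 (n = 6) and the same antibody in the other condition 4.09% ± 2.75 (n = 12). Pairs with neither preparation nor antibody in common shared 4.25% ± 2.8 (n = 36), and these include pairs of the same condition. Same-preparation pairs exceeded the others by 0.0346 on the 0 to 1 scale (exact one-sided test over 15400 groupings into sets of 3, p = 6.49e-05, the smallest it can give). Every same-preparation pair is also of the same condition, and the groupings ignored condition. The test therefore cannot separate preparation from condition. Pairs with the same antibody differed from other pairs by -0.00893 (exact one-sided, p = 0.593). No same-preparation pair shares an antibody, so all of them stand among the other pairs and pull this difference down. Pairs of the same condition exceeded the others by 0.0169 (exact one-sided, p = 0.333, the smallest it can give).

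**Figure D5:**
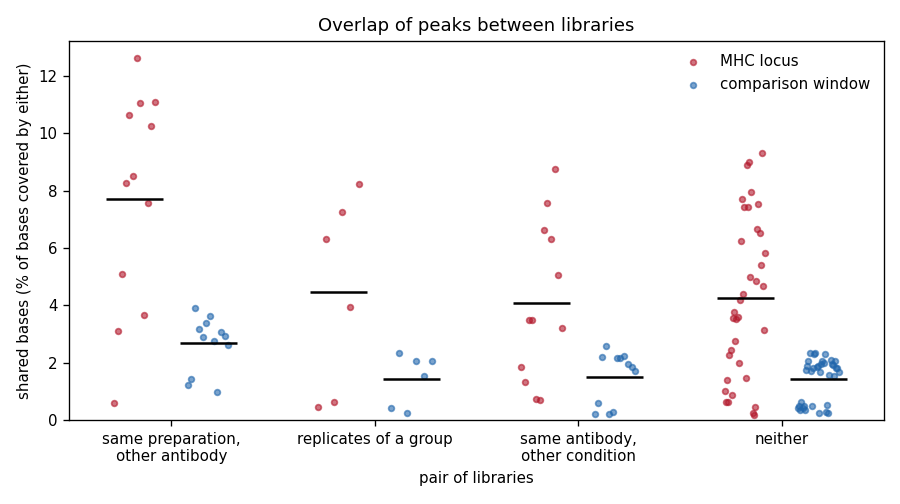
Bases shared by 2 libraries, in percent of the bases covered by either, for pairs grouped by what they have in common, in the MHC locus and in the comparison window. Points are pairs of libraries and lines are means. Same-preparation pairs average 7.7% in the locus and 2.68% in the comparison window.

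Same-preparation pairs also had the highest mean in the comparison window, at 2.68% ± 0.951 (SD, n = 12 pairs). There the same antibody in the other condition shared 1.52% ± 0.91 (n = 12), replicates 1.45% ± 0.905 (n = 6) and pairs with neither in common 1.43% ± 0.754 (n = 36). There the same-preparation excess was 0.0123 (exact one-sided, p = 6.49e-05), from a test with the same limit. The index was higher in the locus than in the comparison window for 63 of 66 pairs, with medians of 4.54% and 1.85%. Within the locus the same-preparation mean was 9.79% and 11.6% in control preparations 1 and 2, 2.46% in knockdown preparation 1, which holds the 2 shortest lists, and 6.97% in knockdown preparation 2. The labels give 1 input for each condition and replicate number. The part of a shared input or of shared cells in the overlap was not tested.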

How the data were processed

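Processed data were 12 narrowPeak lists, 1 per immunoprecipitated library; the 4 inputs have no list here. Per the submitters' processing notes and the study's methods, reads were handled with CASAVA 1.8, aligned to hg38 with BWA 0.7.12 and peaks were called with MACS2 2.1.0; DiffBind is also named. The handling of reads that align to several places is not given in the sources used here. The deposited columns are a score (10 times -log10 p, truncated), a fold ratio over background at the summit, and -log10 of the p-value and q-value, all made by the authors per library. Depth is not stated, so only fragments at summits are given, within 0.001 of the listed -log10 p.

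Intervals listed more than once were counted once, and peaks above 5000 bp were set aside. The members, the 10 gene lists, tests and alternatives were chosen with earlier results of these data known. Peaks were merged when they shared 1 bp. Genes and promoters came from RefSeq on GRCh38.p14. Promoter entries were found for 40 of the 47 listed genes; HLA-E, HLA-DRA, IER3, NCR3, C4A, C4B and DAXX were counted over the gene only. The named genes were HLA-B, HLA-C, TNF, LTA, LTB, IER3, NFKBIL1, TAP1 and PSMB9, the member of each list whose promoter had a peak in the most libraries, the 5 promoters called in the most libraries, and genes at the 5 most shared regions and at each library's best-ranked peak; other listed genes are named with their counts after these were seen, and some results that the rule would name are not reported here. Tests were exact, over libraries or preparations, with Benjamini-Hochberg adjustment over the 3 antibodies. Python 3.11.15, numpy 2.4.6, pandas 2.3.3 and scipy 1.17.1 were used, and the merging and fragment recovery were tested on simulated data. Alternatives were a -log10 p of at least 2, the 20000 smallest p-values per list, no length limit, the rest of chromosome 6, 50 bp of shared sequence, wider promoters, a replicate block and leaving out each library. Fragment numbers cover counting error only, and no molecular identifiers are stated.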

Additional observations from a re-analysis of the deposited data

Results flagged for a closer look

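Intervals longer than 5000 bp, which are not among the peaks above, were found in the locus in 2 knockdown libraries and in none of the 6 controls, and were singled out for that reason. RELA knockdown replicate 2 listed 26 and NFKB2 knockdown replicate 2 listed 29, and the comparison window held 0 in every library. They covered 33.2% and 45.8% of the locus, with a longest interval of 327 kb and 374 kb. The 2 libraries have the same condition and replicate number, and the RELB library of that preparation had 0. They shared 1453 kb, 87.5% of the bases in the first and 63.5% of those in the second, and 10 intervals had the same start and end. A single fragment stood at the summit of 24 of the 26 and of 20 of the 29 intervals. TNF, LTA, LTB and NFKBIL1 lay inside such an interval in both libraries (chr6:31477501-31606421 and chr6:31477501-31606615), and so did IER3 (chr6:30707210-30815111 and chr6:30707210-30815143). Of the 47 listed genes, 27 had such an interval over them, and 20 of these had no peak up to 5000 bp. The share among all genes of the locus is not given here, so this count describes no trait of the listed genes. The number of such intervals over all chromosomes is not given either. The cause was not tested.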

How the results depend on the processing

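Of 131 recomputed values for 19 results, 102 kept their direction and, for counts, stayed within 1.5 times the reported value. The 102 include the density ratio by antibody and by preparation. These are variances of means and cannot change direction. The lower density of the locus kept its direction in every alternative, from -2.91 against the rest of chromosome 6 to -0.84 among the 20000 smallest p-values, and ran from -2.53 to -2.4 with 1 library left out. With 1 library left out, the log2 ratio of peak numbers ran from -2.68 to -0.49 (RELA), -3.61 to 0.02 (RELB) and -0.37 to -0.03 (NFKB2), and that of the density ratios from -0.94 to -0.05, -0.83 to 0.1 and -0.29 to -0.19. RELB turned to 0.0192 (numbers) and 0.0956 (density ratio) without knockdown RELB replicate 1, and NFKB2 to 0.0232 (density ratio) against the rest of chromosome 6. With 1 library left out a pattern rests on 3 libraries, and knockdown-only regions ran from 1 to 82 (RELA), 2 to 96 (RELB) and 15 to 96 (NFKB2), and control-only regions from 26 to 150, 23 to 122 and 20 to 120. Among the 20000 smallest p-values, knockdown-only regions fell to 0, 0 and 0 and control-only regions to 2, 1 and 2. With at least 50 bp shared, RELB gave 1 and 15, and with a -log10 p of at least 2 NFKB2 gave 4 and 9. Promoters widened to 5 kb either side gave 47 genes in place of 23. For the other settings the cause was not tested.

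Replicate numbers are shared between conditions, but the labels do not say that a number marks a shared culture. With the replicate block the values were the same (-1.59, -1.79 and -0.20 for peak numbers, -0.49, -0.37 and -0.24 for density ratios), with an exact sign-flip p of 0.5 for each, the smallest that 2 pairs allow. Deviations of same-numbered libraries from their group means correlated at 0.181 (RELA), 0.242 (RELB) and 0.575 (NFKB2) over 171 bins of chromosome 6.

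Peaks of 1 or 2 fragments limit every comparison in the locus. The fragments behind the peaks of RELA knockdown replicate 1 and RELB knockdown replicate 1 could not be recovered. The bins around TNF, LTA, LTB and IER3 held no peak up to 5000 bp, and a missing peak there is not evidence of a missing factor.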
